A study of Mus musculus with 14 samples.

Results

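Elements of open chromatin that entered the rod peak list alone were described here in sorted mouse photoreceptors. An element was a 200 bp window of the deposited count table. It was chosen when it overlapped, by 1 bp or more, the 100 bp on either side of a summit in the rod peak list, and no such window of the Nrl-/- photoreceptor list or the double-sorted green cone list. This rule selected 3043 of 53204 elements (5.72%), out of 29204 elements in the rod list. Because the ATAC-seq peaks of the same libraries chose these rod-only elements, their accessibility in rods, Nrl-/- photoreceptors and green cones is given as a description, and the tests below rest on RNA-seq.

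Cells were sorted by GFP from retinas of C57BL/6 mice aged 8 weeks. Rods came from the genotype Nrl-eGFP and were sorted once (2 ATAC-seq and 3 RNA-seq libraries). Nrl-/- photoreceptors came from the genotype Nrl-eGFP;NrlKO and were sorted once (2 ATAC-seq and 3 RNA-seq libraries); the labels also call them blue cones, and they are cells that lack the rod factor NRL, not native cones. Green cones came from the genotype Opn1mw-GFP and were sorted once or again for purity (2 ATAC-seq libraries each, no RNA-seq analysed here). The authors call the libraries biological replicates, but the labels and methods do not say which libraries came from separate animals. The p-values thus measure the spread between libraries, and whether each stands for a separate animal is not known. The methods state male mice unless otherwise noted, and the double-sorted green cone sorts include a female mouse each.

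Rods are the dim-light photoreceptors of the retina, and cones serve daylight and colour vision. NRL, a bZIP factor of the MAF family, and its target NR2E3, a nuclear receptor, direct rod precursors to the rod fate and repress cone genes, while the homeodomain factor CRX acts in both cell types and binds sites of the type CTAATCC. Without NRL, precursors that would become rods take on many features of cones. ATAC-seq reads the places where the Tn5 transposase can insert into DNA, and such open sites outside promoters often hold regulatory sequence.

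Reads in elements ranged from 5170146 to 5770075 in rods, 2402513 to 4318961 in Nrl-/- photoreceptors, 2131701 to 3940065 in single-sorted green cones and 1062403 to 1263753 in double-sorted green cones, so that a count of 3 was worth 0.565 to 0.625 CPM (reads scaled to library size) in rods but 2.33 to 2.69 CPM in double-sorted green cones. RNA-seq gave 18376770 to 26312895 reads in genes per library. Nrl RNA was 604, 853 and 749 CPM in rods against 33.9, 39.2 and 24.4 CPM in Nrl-/- photoreceptors, and an Nrl intron element at chr14:55521184-55521383 had 0 reads in both Nrl-/- libraries against 100 and 107 CPM in rods. Summed over the fixed marker lists, rod genes reached 75477 to 106614 CPM in rods against 279 to 371 CPM in Nrl-/- photoreceptors, and cone genes 533 to 546 CPM in rods against 74064 to 85093 CPM in Nrl-/- photoreceptors.

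The sequences below are elements nearest to genes of rod phototransduction, shown because they carry the words counted later in all elements. For genes of the rod phototransduction, rod transcription factor and outer segment lists, the member with the highest rod counts per gene outside untranslated regions was taken, and 4 of those that hold such a word are printed (plus strand, GRCm38, from the RefSeq genome). Capitals mark the word found on either strand. The Gnb1 element (chr4:155522426-155522625, an intron 31165 bp from the start site) holds a CRX-type site on the minus strand at base 80 and the word CAGATG, a site of bHLH factors such as NEUROD1, at base 31. The Guca1a element (chr17:47394310-47394509, 6196 bp past the start site) holds AAGGTCA, the nuclear receptor core site with 1 further base, at base 51 and a CRX-type site at base 153. The Slc24a1 element (chr9:64952151-64952350, 631 bp upstream) holds the AP-1 word TGANTCA at base 92, and the Grk1 element (chr8:13411745-13411944, an intron 6764 bp from the start site) a CTCF core at base 74. The elements taken in this way at Casz1, Prph2 and Esrrb held none of the 18 words.
Gnb1: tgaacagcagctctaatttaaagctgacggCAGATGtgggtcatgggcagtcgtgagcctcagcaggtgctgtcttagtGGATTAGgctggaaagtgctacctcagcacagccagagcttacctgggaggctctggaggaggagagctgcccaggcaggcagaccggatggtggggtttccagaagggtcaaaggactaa
Guca1a: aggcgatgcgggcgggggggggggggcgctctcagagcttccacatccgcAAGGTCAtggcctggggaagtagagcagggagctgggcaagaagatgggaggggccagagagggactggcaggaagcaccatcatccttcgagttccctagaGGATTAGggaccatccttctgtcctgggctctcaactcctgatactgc
Slc24a1: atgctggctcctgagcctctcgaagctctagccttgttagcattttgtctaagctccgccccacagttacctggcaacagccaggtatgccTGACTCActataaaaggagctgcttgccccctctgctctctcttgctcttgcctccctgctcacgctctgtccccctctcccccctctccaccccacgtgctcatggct
Grk1: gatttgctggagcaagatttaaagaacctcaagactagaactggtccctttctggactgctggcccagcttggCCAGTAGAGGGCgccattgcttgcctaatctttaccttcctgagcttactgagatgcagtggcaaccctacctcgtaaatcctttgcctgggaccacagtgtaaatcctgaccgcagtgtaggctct

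The rod-only elements lay mostly away from promoters. Only 311 of them (10.2%) were promoters, meaning 1000 bp upstream to 100 bp downstream of a RefSeq start site, against 26.6% of all elements and 47.8% of the 21863 elements shared by all 3 lists. Introns held 1729 (56.8%, against 39.8% of all elements), intergenic sequence 830 (27.3%, against 27.8%) and exons 173 (5.69%, against 5.70%). The median distance to a start site was 11350 bp for rod-only elements, 8400 bp for all elements and 22909 bp for the 8788 elements in both cone lists but not in the rod list. Rod-only elements had a median GC content of 49.5% (53.5% in all elements), and on average 17.1% of their bases were soft-masked as repeats (8.47% in all elements), above the other groups compared, which held 6.39% (all 3 lists), 7.86% (both cone lists) and 11.2% (the 3774 elements in the rod and Nrl-/- lists only).

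Along the genome, the element directly before or after was also rod-only for 695 of them (22.8%), where rod-only elements are 5.72% of all elements. For the elements in both cone lists only, which are 16.5% of all, the share with a neighbour of their own kind was 49.1%. A match on either side counted, so both shares would exceed the share of all elements even without clustering. The excess beyond that was not tested. The longest run held 5 rod-only elements in a row at chr11:4001698-4083652, between Gal3st1 and Mtfp1. By chromosome, rod-only elements made up 8.99% of the 901 elements on chromosome X, 8.51% on chromosome 19, 7.24% on chromosome 11 and 3.61% on chromosome 18. The female mice in the double-sorted green cone sorts cannot be told apart from the cell type on chromosome X.

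Rod peaks of rod-only elements were weaker than other rod peaks. Their median -log10 q, from the MACS2 peak caller, was 54.6, against 179 for the other elements of the rod list, and 487 of them (16.0%) reached 100, against 67.7%. The lists themselves end at different values, the lowest -log10 q being 36 in the rod list, 15.3 in the Nrl-/- list, 8.98 in the double-sorted list and 11 in the single-sorted list. Median accessibility was 9.58 and 10.2 CPM in rods, against 3.31 and 3.18 CPM in Nrl-/- photoreceptors, 5.13 and 4.56 CPM in single-sorted green cones and 3.11 and 3.59 CPM in double-sorted green cones, while over all elements the library medians lay between 7.71 and 10.0 CPM. A rod-only element thus typically stood at a modest level in rods and kept some signal in cones.

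**Figure D1:**
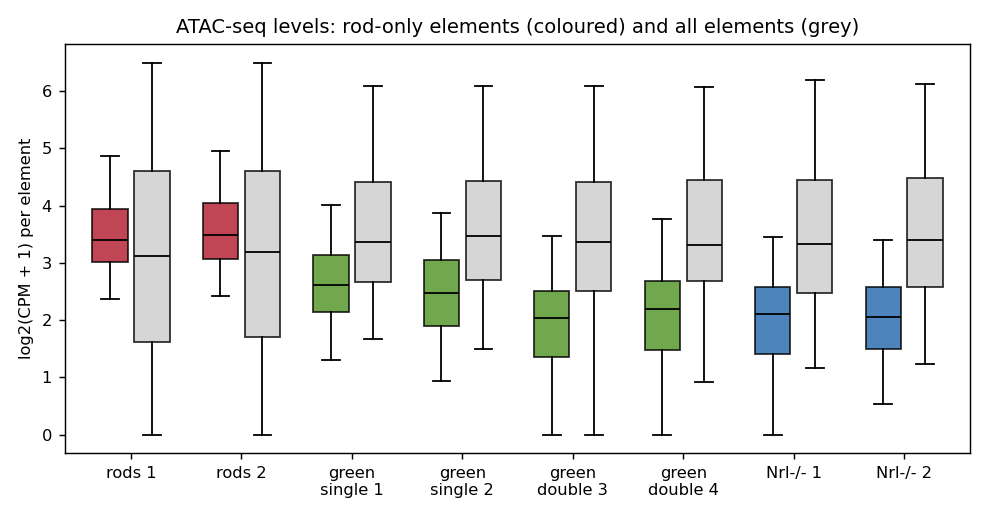
Accessibility of the 3043 rod-only elements (coloured boxes) and of all 53204 elements (grey boxes) in each ATAC-seq library, as log2(CPM + 1). Boxes span the quartiles with the median as a line, and whiskers the 5th to 95th percentile over elements; rod-only medians are 9.58 and 10.2 CPM in rods, 5.13 and 4.56 CPM in single-sorted green cones, 3.11 and 3.59 CPM in double-sorted green cones, with Nrl-/- photoreceptors at 3.31 and 3.18 CPM.

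Counts in rods were compared with those of the 4 cone libraries (double-sorted green cones and Nrl-/- photoreceptors) in a single edgeR fit over all elements, testing for a change of more than 1 on the log2 scale at an adjusted p under 0.1. Of 2998 rod-only elements with enough reads, 1067 were called more open in rods and 0 less open, where 3.98% of all 51563 elements tested were called more open and 18.1% less open; as the rule used this contrast, nothing is read from that difference. At an unadjusted p under 0.05, edgeR put 2 rod-only elements lower in rods, and DESeq2 put 0. The calls in rods were 52.0% of all 2052 elements called more open, and 612 others were in all 3 lists. Over the 2998 rod-only elements tested, called or not, the median log2 difference was 1.61 (quartiles 1.04 and 2.38), and the difference was below 0 for 85. Without rod library 1 the count of calls was 399, without rod library 2 it was 354, and DESeq2 gave 412. Both rod libraries lay above all 4 cone libraries at 2396 rod-only elements (78.7%), against 26.1% of all elements.

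A part of the rod-only elements sat inside a broader cone peak. For 532 of them (17.5%) a Nrl-/- or double-sorted green cone peak overlapped the element while its summit lay at least 200 bp away. These had a median log2 difference of 0.90 and 32.1% were promoters, against 1.75 and 5.58% for the 2511 rod-only elements free of any cone peak. They made up 62 of the 1067 calls.

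Some of the rod-only elements with the highest rod counts lay at genes whose RNA was higher in rods by edgeR, among them Gnat1, Gnb1, Nr2e3 and Reep6, and others at promoters open in every cell type. The promoter element of Gnat1 (chr9:107679619-107679818), which encodes the rod transducin alpha subunit, had 126 and 111 CPM in rods against 0.828 and 0.454 CPM in Nrl-/- photoreceptors, with 42.5 and 27.8 CPM in green cones after a single sort and 1.55 and 5.39 CPM after the second. The rod libraries stood above all others there, and single-sorted green cones lay between rods and the remaining libraries. An intron element of Gnb1 (chr4:155522426-155522625), for the transducin beta subunit, had 91.6 and 103 CPM in rods against 2.48 and 1.36 CPM in Nrl-/- photoreceptors. Its sequence is the first printed above, and single-sorted green cones had 30.3 and 25.1 CPM there.

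The promoter element of Nr2e3 (chr9:59950049-59950248) had 76.8 and 74.0 CPM in rods against 2.48 and 5.90 CPM in Nrl-/- photoreceptors, with 6.22 and 10.8 CPM in double-sorted green cones. About 1 kb away, at chr9:59951087-59951286 near the start site of Gm7616, which lies within the Nr2e3 gene, a further element had 81.4 and 85.7 CPM in rods against 4.14 and 4.99 CPM in Nrl-/- photoreceptors. A pair of elements in introns of Reep6, whose product is needed for membrane transport in rods, had 97.9 and 116 CPM (chr10:80332204-80332403) and 82.3 and 86.8 CPM (chr10:80331880-80332079) in rods against 10.8 and 13.2 CPM and 4.14 and 2.27 CPM in Nrl-/- photoreceptors. Again the rod values lay far apart from the Nrl-/- values at each of these elements. Among the 10 elements with the highest rod counts were also a pair of promoter elements with strong signal in every library. At Khsrp (chr17:57031960-57032159) rods had 143 and 144 CPM against 84.0 and 68.3 CPM in Nrl-/- photoreceptors, with 22.5 and 89.8 CPM in double-sorted green cones. At Pcf11 (chr7:92670268-92670467) rods had 81.4 and 86.0 CPM, Nrl-/- photoreceptors 54.2 and 44.9 CPM and double-sorted green cones 58.3 and 61.1 CPM. At both, a cone summit lay close by, 241 bp and 262 bp away.

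**Figure D2:**
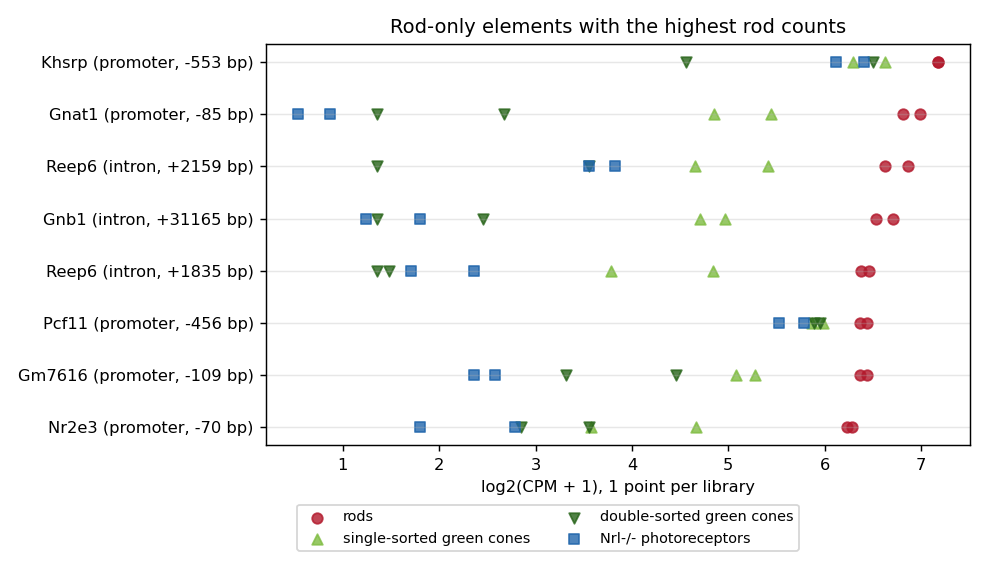
Elements among the 10 rod-only elements with the highest mean rod CPM (8 are drawn), 1 point per library on a log2(CPM + 1) axis, named by the nearest start site, location and signed distance to it. Rods lie to the right in every row, single-sorted green cones fall between rods and the other libraries at 6 of the 8 elements, and Khsrp and Pcf11 have high values in all cell types.

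The ratio of rods over Nrl-/- photoreceptors ran over a wide range. In 36 rod-only elements both Nrl-/- libraries had 0 reads, and these were ranked with a count of 3 per library in place of 0. The highest values then fell on elements with 2 to 4 Nrl-/- reads in all, so that their order among themselves cannot be read. A Kcnj14 intron element (chr7:45823319-45823518) had 57.3 and 64.8 CPM in rods against 0 and 0.454 CPM in Nrl-/- photoreceptors, 209-fold by summed reads with an exact 95% counting interval of 57.5 to 1728. At an Anks1 intron element (chr17:27927639-27927838) rods had 51.9 and 59.1 CPM against 0 and 0.454 CPM in Nrl-/- photoreceptors (190-fold, 52.3 to 1572). The Gnat1 promoter element stood at 201-fold (78.5 to 741). At the other end, 3 elements chosen by the rule had less signal in rods. A Notch1 intron element (chr2:26500598-26500797) had 10.0 and 9.98 CPM in rods against 72.9 and 56.1 CPM in Nrl-/- photoreceptors, with a cone summit 209 bp away. An element at Slc36a1 (chr11:55204530-55204729) had 0.417 and 0.565 CPM in rods against 2.07 and 3.18 CPM in Nrl-/- photoreceptors, and at Ccdc82 (chr9:13247089-13247288) it was 2.29 and 2.45 CPM in rods against 7.04 and 4.99 CPM in Nrl-/- photoreceptors. The same held just inside the rule: the element at Eri1 (chr8:35495207-35495406), 200 bp from a cone summit, had 2.08 and 0.753 CPM in rods against 2.48 and 2.27 CPM in Nrl-/- photoreceptors, while it had 8.55 and 10.8 CPM in double-sorted green cones.

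Just outside the rule, the Cep19 promoter element (chr16:32099869-32100068), 195 bp from a cone summit, had 15.6 and 17.9 CPM in rods against 13.2 and 17.9 CPM in Nrl-/- photoreceptors. Just inside it, the Scrt1 element (chr15:76523406-76523605), 200 bp from one, had 14.2 and 16.4 CPM in rods against 8.69 and 4.09 CPM in Nrl-/- photoreceptors. A cone summit lay under 300 bp away from 257 rod-only elements, and 40 other elements of the rod list had one at least 150 bp away. At the lowest rod -log10 q, 36, an Atoh7 element (chr10:63122603-63122802) had 3.75 and 10.4 CPM in rods against 6.62 and 5.90 CPM in Nrl-/- photoreceptors, and the groups overlap there.

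Green cones sorted once were not used by the rule. Their separate peak list held 1185 of the 3043 rod-only elements (38.9%), against 80.2% of all elements and 87.6% of those in both cone lists. Across rod-only elements the single-sorted level was a median of 46.1% of the rod level (quartiles 32.5% and 63.9%), against 30.0% for double-sorted green cones and 33.3% for Nrl-/- photoreceptors. At the 159 rod-only elements where Nrl-/- photoreceptors had under 5% of the rod level, the median was 26.5% after a single sort and 7.73% after the second. With the single-sorted peaks held to a -log10 q of 36 or more, near the lowest of the rod list, 3.25% of rod-only elements were in the list, against 42.9% of all elements and 34.2% of those in both cone lists. The part of cells other than green cones in these values was not tested.

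RNA-seq of rods and Nrl-/- photoreceptors gave a measure that did not choose the elements. The gene with the closest start site stood for each element, and edgeR tested 12327 genes for a change of more than 1 on the log2 scale at an adjusted p under 0.05. Of the 1799 tested genes nearest to a rod-only element, 313 (17.4%) were higher in rods, where 6.88% of all genes tested were, and 123 (6.84%) were lower in rods, where 13.3% of all were. Their median log2 difference was 0.32, against 0.01 over all genes tested. The genes nearest to an element in both cone lists but not in the rod list showed 6.49% higher and 28.1% lower in rods (2882 tested, median -0.35). In bulk samples, fewer cells of a type and less RNA per cell cannot be told apart. Markers of bipolar cells summed to 77.7 to 107 CPM in rods against 1358 to 1572 CPM in Nrl-/- photoreceptors. Those of Mueller glia summed to 92.4 to 149 CPM in rods against 702 to 874 CPM in Nrl-/- photoreceptors. The single markers were mixed. By edgeR, 3 of 7 bipolar markers tested were lower in rods and 1 was higher (median log2 difference -0.98). Of 7 Mueller glia markers tested, 2 were lower and 0 higher, with a median of 0.35. The part of these cells in the genes lower in rods was not tested.

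The share of genes higher in rods grew with the number of rod-only elements. It was 13.9% of 1418 genes nearest to 1 such element, 28.1% of 278 genes nearest to 2, and 36.9% of 103 genes nearest to 3 or more, with median log2 differences of 0.27, 0.55 and 0.80. The share lower in rods was 7.26%, 5.76% and 3.88%. Genes with no rod-only element but 3 or more other elements had 5.44% higher and 20.3% lower in rods (3857 tested). Genes with a rod-only promoter had 25.2% higher in rods (250 tested) and those with a rod-only element elsewhere 17.1% (1615 tested). The share was 28.9% for genes near rod-only elements in the highest quartile group of rod counts and 12.6% near those in the lowest. It was 18.5% of the genes 10 to 100 kb from the element and 19.3% of the 83 genes beyond 100 kb. Read the other way, 36.9% of the 848 genes higher in rods lay nearest to a rod-only element, against 14.6% of all genes tested and 7.52% of those lower in rods, and 29 of the 50 with the largest log2 difference did.

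**Figure D3:**
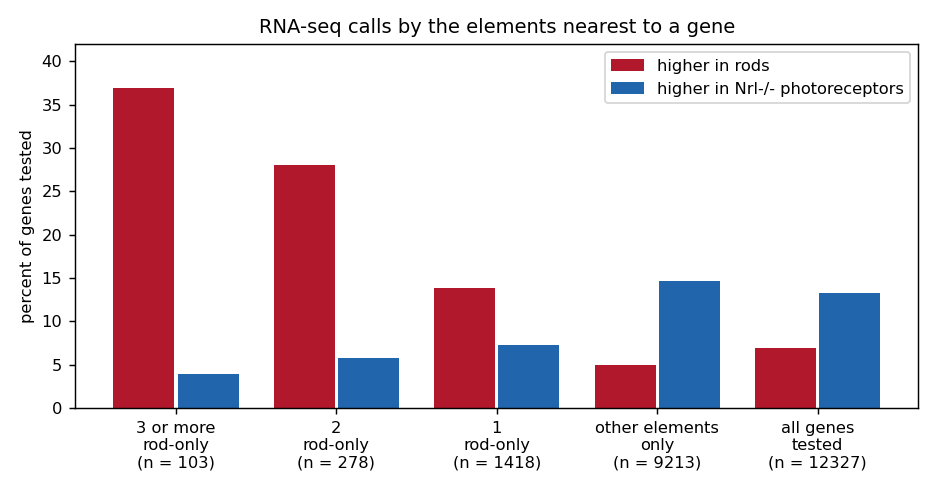
Percent of tested genes called higher in rods (red) or higher in Nrl-/- photoreceptors (blue) by edgeR, for genes nearest to 3 or more, 2 or 1 rod-only elements, to other elements only, and for all genes tested; n is the number of genes tested. The red bars stand at 36.9%, 28.1%, 13.9%, 4.90% and 6.88%.

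Rod phototransduction is the cascade that turns photon capture into a change of membrane current. Of 21 genes in its list, 13 had a rod-only element (23 of the 97 elements of the list, 23.7%, against 5.72% of all elements). By edgeR, 9 of these 13 were higher in rods, and so were 13 of all 21 genes of the list. Gnat1 had 22072, 30244 and 25278 CPM in rods against 63.6, 56.9 and 39.5 CPM in Nrl-/- photoreceptors (log2 difference 8.90 ± 0.27 SE, adjusted p 1.9e-10), and Gnb1 59425, 83169 and 67072 CPM in rods against 301, 325 and 296 CPM in Nrl-/- photoreceptors (7.81 ± 0.22, adjusted p 9.8e-11). The groups lay wholly apart for both genes. Pde6b, the beta subunit of the rod phosphodiesterase that hydrolyses cyclic GMP, had 14040, 14972 and 13837 CPM in rods against 175, 171 and 155 CPM in Nrl-/- photoreceptors, and its promoter element (chr5:108388273-108388472) had 67.7 and 68.7 CPM of ATAC-seq reads in rods against 0.414 and 1.36 CPM in Nrl-/- photoreceptors. Cnga1, the alpha subunit of the rod cyclic-nucleotide-gated channel, had 2172, 2812 and 2249 CPM in rods against 4.81, 4.67 and 2.79 CPM in Nrl-/- photoreceptors. Slc24a1, the rod sodium-calcium-potassium exchanger, had 1755, 2644 and 2265 CPM in rods against 18.5, 15.1 and 13 CPM in Nrl-/- photoreceptors, and Pde6a, Grk1 and Rcvrn had log2 differences of 3.09, 1.91 and 1.37.

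Recoverin (Rcvrn) stood at the threshold, with an adjusted p of 0.048 by edgeR and 2137, 3716 and 2928 CPM in rods against 966, 1142 and 1243 CPM in Nrl-/- photoreceptors; its call was lost in 6 of 11 alternatives, whose adjusted p ran from 6.4e-05 to 0.35, among them those without rod library 2 (0.223), without rod library 3 (0.0882) and without Nrl-/- library 1 (0.0972) or 2 (0.0852). The other 4 genes, Rgs9, Gnb5, Guca1a and Gucy2e, which also serve cones, had log2 differences of 0.80, 1.19, 0.38 and 0.95 that did not pass the test. The Guca1a element printed above had 35 and 36.7 CPM in rods against 5.80 and 10.9 CPM in Nrl-/- photoreceptors, while Guca1a RNA was 2273, 2164 and 2096 CPM in rods against 1318, 1603 and 2029 CPM in Nrl-/- photoreceptors.

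Of 9 transcription factors of rods, Nr2e3, Esrrb, Casz1 and Prdm1 had rod-only elements. Of the 90 elements of the list, 14 (15.6%) were rod-only, against 5.72% of all elements. Nr2e3 RNA was 1298, 2056 and 1891 CPM in rods against 3.96, 4.09 and 2.46 CPM in Nrl-/- photoreceptors (log2 difference 8.94 ± 0.27 SE, edgeR adjusted p 2.2e-10). Esrrb, an orphan nuclear receptor, had 6 rod-only elements among its 16, in introns and upstream, from -40296 to 79666 bp relative to a start site. The strongest of them, at chr12:86427473-86427672 and chr12:86501210-86501409, had 22.3 and 24.5 CPM and 21.5 and 25 CPM in rods against 4.97 and 7.72 CPM and 0 and 2.27 CPM in Nrl-/- photoreceptors. Esrrb RNA was 243, 285 and 229 CPM in rods against 14.6, 16.9 and 11.3 CPM in Nrl-/- photoreceptors (log2 difference 4.12 ± 0.17 SE, edgeR adjusted p 4.5e-09). Casz1, a zinc finger factor, had 5 rod-only elements among 22, and its RNA, 367, 351 and 331 CPM in rods against 225, 149 and 141 CPM in Nrl-/- photoreceptors, did not pass the test (1.00 ± 0.17); without Nrl-/- library 1 it passed at an adjusted p of 0.022, over a range of 3e-04 to 1 in its alternatives. Prdm1, a repressor that keeps photoreceptor precursors from the bipolar fate, was lower in rods, with 38.9, 38.5 and 42.4 CPM against 108, 96.2 and 102 CPM in Nrl-/- photoreceptors (-1.38 ± 0.11, edgeR adjusted p 0.00405), and it had 2 rod-only elements. The one at chr10:44567302-44567501 had 10.8 and 11.3 CPM in rods against 2.48 and 0.454 CPM in Nrl-/- photoreceptors, while that at chr10:44529695-44529894 had 3.33 and 5.08 CPM in rods against 3.31 and 6.13 CPM in Nrl-/- photoreceptors. Nrl, Mef2c, Rorb, Samd7 and Samd11 were higher in rods by edgeR and had none among their 4, 8, 13, 4 and 1 elements.

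The homeodomain factor genes of both photoreceptor types Crx (2 rod-only elements), Otx2 and Rax (1 each) and the MADS box factor genes Mef2d and Mef2a (1 each) had rod-only elements, and none of these 5 genes passed the RNA test (log2 differences 0.65, 0.04, -0.16, 0.04 and 0.63). Of the 46 elements of the list of factors of both photoreceptor types, 6 (13.04%) were rod-only, against 5.72% of all elements. That share lay near the 15.6% of the rod factor list, though none of these 5 genes passed the RNA test. The excess over all elements was not tested. Thrb, whose thyroid hormone receptor directs the M-opsin cone fate, had 4 rod-only elements among 29. The RNA difference of Thrb, -0.77, did not pass. No gene of the cone marker list had one among its 26 elements, where 5.72% of all elements were rod-only. So few elements do not set this list apart from all elements. In the other cone lists the share was close to that of all elements. It was 4 of 82 elements (4.88%) for cone phototransduction and 4 of 70 (5.71%) for transcription factors of cones. The 4 elements of cone phototransduction lay at Grk1, Rgs9, Gucy2e and Guca1a, which are also in the rod phototransduction list. No other gene of the cone phototransduction list had a rod-only element.

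Of 17 outer segment genes with an element, 5 had a rod-only one, and 8 of the 103 elements of the list (7.77%) were rod-only, near the 5.72% of all elements. Prph2, a tetraspanin of the disc rim, had 3 such elements, whose rod values ran from 13.5 to 36.1 CPM against 0.828 to 7.72 CPM in Nrl-/- photoreceptors, and its RNA was 8070, 10322 and 8984 CPM in rods against 2828, 3342 and 3387 CPM in Nrl-/- photoreceptors (log2 difference 1.5 ± 0.15 SE, edgeR adjusted p 0.00345). Rp1, an axonemal protein, had 3441, 3625 and 3274 CPM of RNA in rods against 441, 350 and 367 CPM in Nrl-/- photoreceptors, while its rod-only element (chr1:4416810-4417009) had 2.50 and 2.64 CPM of ATAC-seq reads in rods against 4.14 and 2.27 CPM in Nrl-/- photoreceptors. Tulp1, Impg2 and Rpgrip1 had RNA differences of -0.51, -0.34 and 0.96 that did not pass. Without Nrl-/- library 1 Rpgrip1 passed at an adjusted p of 0.0097, within a range of 0.0051 to 1 over its alternatives. Among other fixed lists, Syne1 and Syne2 (nuclear envelope, log2 differences 1.83 and 1.43), Rims2 (active zone of the synapse, 1.3) and Eno1 (glycolysis, 2.76) had a rod-only element and were higher in rods by edgeR; Eno1 shares reads with near-identical copies, so that its value is uncertain. In all, 3 of 12 nuclear envelope, 6 of 18 synapse and 4 of 18 glycolysis genes had a rod-only element, and 6.67%, 5.74% and 5.80% of the elements of these lists were rod-only, close to the 5.72% of all elements. The other such genes did not pass the RNA test, with log2 differences of 0.89 for Tmpo of the nuclear envelope list, -1.10 to 0.98 for Egflam, Stx3, Cplx4, Elfn1 and Dmd of the synapse list, and -0.83 to 0.45 for Hk2, Ldha and Pfkl of the glycolysis list.

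**Figure D4:**
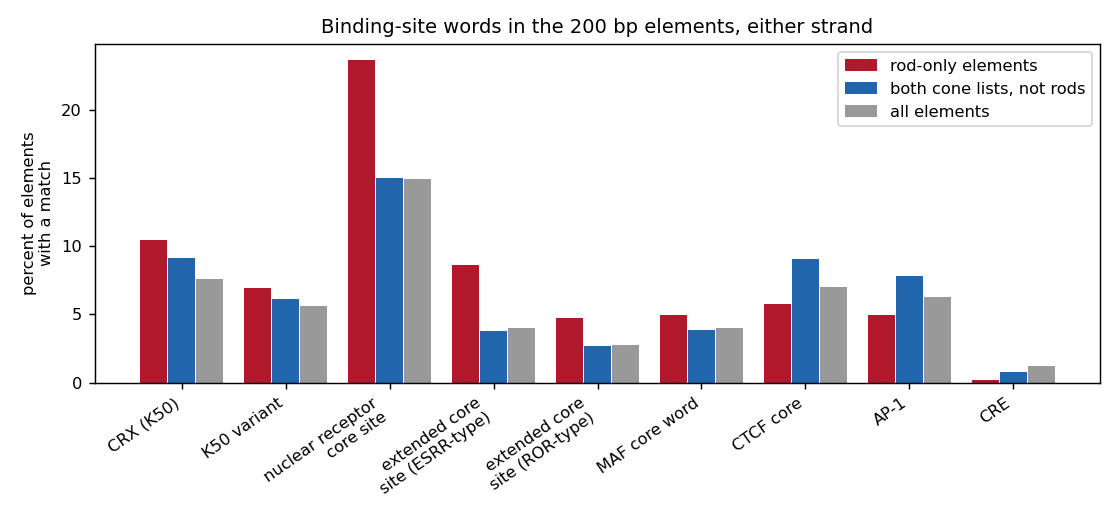
Percent of 200 bp elements with at least 1 match of a binding-site word on either strand, for rod-only elements (red), elements in both cone lists but not the rod list (blue) and all elements (grey). The nuclear receptor core site was found in 23.6% of rod-only elements, 15.0% of the cone elements and 14.9% of all.

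Among genes of any kind nearest to a rod-only element, those with the largest differences in RNA were nearly absent from Nrl-/- photoreceptors. Abca13, a lipid transporter of the ABC family, had 67.8, 73.9 and 70.4 CPM in rods against 0.116, 0 and 0.0744 CPM in Nrl-/- photoreceptors (log2 difference 9.97 ± 0.29 SE, edgeR adjusted p 1.75e-10). Fam160a1, with 4 rod-only elements among 5, had 141, 126 and 144 CPM in rods against 0.155, 0.156 and 0.186 CPM in Nrl-/- photoreceptors (9.62 ± 0.20). Kcnj14, an inward rectifier potassium channel, had 250, 269 and 292 CPM in rods against 0.543, 0.701 and 0.260 CPM in Nrl-/- photoreceptors (9.04 ± 0.23). Nipal1 (9.77), Sh2d1a (9.13) and Glt28d2 (8.99) followed, with Cnga1, Nr2e3 and Gnat1 also among the 10 highest. Without Nrl-/- library 1 the log2 difference was 10.65 for Abca13 and 10.12 for Sh2d1a, and without Nrl-/- library 2 it was 10.60 for Nipal1.

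The 10 genes that were most reduced in rods show the other case, an element listed in rods alone beside a gene that is low there. Rerg, a RAS-like GTPase gene, had 0.408, 0.316 and 0.448 CPM in rods against 39.1, 41.5 and 40.5 CPM in Nrl-/- photoreceptors (log2 difference -6.70 ± 0.21 SE, edgeR adjusted p 2.7e-10). 4930447C04Rik had 2.70, 3.21 and 3.64 CPM in rods against 379, 286 and 232 CPM in Nrl-/- photoreceptors (-6.58 ± 0.23). Tspan11 and Crtac1 had 0 reads in all 3 rod libraries and, set against a count of 3 per library, were at least 6.68-fold and 4.64-fold lower in rods. Elfn2, Srsf12, Shisa7, Dusp18, H6pd and Egr3 lay between -5.34 and -6.50. Their rod reads were few, and without rod library 2 the value for Dusp18 moved to -9.40 (-5.98 with all libraries), while without rod library 1 that for Egr3 moved to -6.34 (-5.50). Each of the 10 had 1 rod-only element among 2 to 11 elements.

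The genes with most rod-only elements did not all follow this order. Ntm and Pcdh15, a neural cell adhesion gene and a protocadherin gene of hair cells and photoreceptors, had 7 each, among 63 and 17 elements. Ntm RNA was 182, 132 and 118 CPM in rods against 225, 211 and 221 CPM in Nrl-/- photoreceptors, and Pcdh15 RNA 232, 108 and 131 CPM in rods against 431, 323 and 298 CPM in Nrl-/- photoreceptors, and neither passed the test. Without rod library 1 Pcdh15 was lower in rods at an adjusted p of 0.0086 (log2 difference -1.57), within a range of 0.0013 to 1 over its alternatives. Most rod-only elements at Ntm stood close to the cone level: 6 of the 7 had a log2 difference in accessibility between 0.34 and 0.90, while that at chr9:28888689-28888888 had 9.58 and 16.2 CPM in rods against 0 and 1.36 CPM in Nrl-/- photoreceptors. Lmo1, a LIM-only transcription cofactor, had 6 among 18, all with log2 differences in accessibility from 2.19 to 4.67, and its RNA was 36.9, 45.8 and 40.2 CPM in rods against 0.970, 0.817 and 1.1 CPM in Nrl-/- photoreceptors (5.37 ± 0.19 SE, edgeR adjusted p 1.2e-09). Negr1, a neuronal adhesion gene with 5 rod-only elements, was lower in rods (-2.49), Mast2 (1.71) and Adgrv1 (1.51) were higher, and Dmap1 (0.26) and Gnaz (1.29) did not pass the test; Gnaz passed without Nrl-/- library 3, at an adjusted p of 0.027 within 2.1e-04 to 0.996 over its alternatives.

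Words of known binding sites were counted on both strands of the 200 bp. The nuclear receptor core site AGGTCA was in 719 rod-only elements (23.6%), against 14.9% of all elements. Its extension AAGGTCA, the form bound by ESRR-type receptors and contained in the core-site count, was in 8.61%, against 3.99% of all and 3.79% of the elements in both cone lists only. TAGGTCA, a form bound by ROR-type receptors, was in 4.73%, against 2.79%. The CRX-type word CTAATCC was in 10.5%, against 7.61% of all and 9.15% of the elements in both cone lists, and CTAAGCC in 6.93%, against 5.61%. TAAT and CTTA set 3 bases apart occurred in 3.52%, against 2.13%, and in elements without a soft-masked base in 2.32%, against 1.87%. An AGGTCA together with any homeodomain word (the CRX type, its CTAAGCC variant or a spaced pair) was in 5.98% of rod-only elements, against 3.0% of all, and without soft-masked bases in 3.98%, against 2.67%. Any of these homeodomain words, with or without AGGTCA, was in 21.7% of rod-only elements, against 16.2% of all. Whether the joint share exceeds what the single shares give was not tested.

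The MAF core word TGCTGAC, part of the NRL site, was in 4.96% of rod-only elements, against 3.98% of all. Words less frequent than in all elements were the CTCF core (5.75%, against 7.02% of all and 13.2% of the elements in the rod and Nrl-/- lists only), the AP-1 word TGANTCA (4.93%, against 6.28%), the homeodomain word TAATTA (4.27%, against 4.71%), the CRE word TGACGTCA (0.164%, against 1.25%), the MEF2 consensus (0.887%, against 1.08%) and CAGATG (14.7%, against 15.3%). Without soft-masked bases CAGATG was in 15.1%, against 14.8%, and the CTCF core in 6.05%, against 6.30%. Outside promoters CAGATG was in 15.6%, against 18.5%, and the CTCF core in 6.19%, against 9.01%. There TGANTCA was in 5.12%, against 7.64%, and TAATTA in 4.47%, against 6.03%. Promoters hold fewer of several words, and outside promoters the shares were 24.6%, against 17.6%, for AGGTCA, 8.97%, against 4.88%, for AAGGTCA, and 11.1%, against 9.54%, for CTAATCC. In the 1206 rod-only elements without a soft-masked base, AGGTCA was in 21.1% and AAGGTCA in 6.80%, against 14.4% and 3.59% of the 29019 such elements in all. These are descriptions of the sequence and name no bound factor.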

How the data were processed

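ATAC-seq was measured in 8 libraries and RNA-seq in 6. Per the methods and the submitters' processing notes, the authors aligned ATAC-seq reads to GRCm38 with Bowtie2 2.2.3, filtered them with SAMtools 1.3 and Picard 1.121, kept inserts up to 100 bp and called peaks with MACS2 2.1.0 on pooled replicates at an irreproducible discovery rate of 0.01, so that shorter fragments weigh more. For RNA-seq they used STAR 2.4.2a for alignment and HTSeq 0.6.1p1 for counting. The deposited tables hold raw counts. The deposited peak lists give a score, the fold enrichment as a ratio, and -log10 p and -log10 q; only -log10 q, the summits and, for overlap with whole cone peaks, the peak ends were used. Reads with no assigned gene in the authors' count table, 41.3% to 49.2% of each RNA library, were left out.

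Members and gene lists were chosen with earlier results of these data known. Nearest start sites came from the RefSeq annotation of GRCm38, and of 2408 nearest genes 2211 matched the RNA table by symbol and 80 by an older symbol. Counts were scaled by TMM and tested with edgeR 4.0.16 (quasi-likelihood fit, glmTreat beyond a log2 fold change of 1, filterByExpr, Benjamini-Hochberg). DESeq2 1.42.0 was an alternative. CPM use TMM-scaled library sizes. Names follow a rule: the 10 elements with the highest rod counts, up to 3 per gene of the rod phototransduction, rod transcription factor and outer segment lists, the 3 highest and lowest ratios, elements at the edges of the rule, the 10 nearest genes highest and lowest in rods, and the 10 with most elements. Reep6, Gm7616, the Fam160a1 and Lmo1 loci and genes of other lists were singled out after their values were seen. Some elements and a gene that the rule picks are not reported here. The RNA kit is not stated to mark strand, so overlapping genes such as Gm7616 and Nr2e3 cannot be told apart. The main fits did not pair samples by replicate number. Deviations of same-numbered rod and Nrl-/- libraries correlated at 0.21, 0.11 and -0.02 in RNA-seq and 0.07 in ATAC-seq. With so few libraries these values cannot show whether the samples were paired. The fits were tested on simulated data.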

Additional observations from a re-analysis of the deposited data

How the results depend on the processing

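Alternative definitions by overlap or a -log10 q of 10 gave 3043 to 3152 rod-only elements, against the 3043 reported. The count was 2511 where whole cone peaks counted and 1858 when elements of the single-sorted green cone list were also left out. It was 487 when, by an alternative chosen after seeing the data, rod peaks needed a -log10 q of 100. Rod-only elements called more open in rods numbered 412 by DESeq2 and 1908 when tested against a log2 fold change of 0, and 354 to 1283 with 1 library left out. Scaling by processed reads moved the median of all elements by 0.45 on the log2 scale and gave 1407 calls, out of 3518 over all elements. Over all elements, DESeq2 called 687 more open in rods and the test against 0 called 9428. Nearest genes higher and lower in rods numbered 822 and 397 of 1799 against a fold change of 0. These were 45.7% and 22.1%, where 29.5% and 31.4% of all genes were called. For start sites within 10 kb they were 186 and 59 of 982 (18.9% and 6.01%). For the stricter rod peaks they were 98 and 19 of 357 (27.5% and 5.32%). The shares of all genes for both were 6.88% and 13.3%. Without the elements of the single-sorted list, 81 genes were lower in rods. Leaving out 1 RNA library gave 277 to 363 genes higher and 104 to 124 lower in rods. The share of promoters was 12.6% within 500 bp of a start site, 5.58% where whole cone peaks counted, and 14.8% for the stricter rod peaks. The share in the single-sorted list was 3.25% at a -log10 q of 36, also added after seeing the data. In the central 100 bp the shares were 8.71% for CTAATCC, 15.7% for AGGTCA, 6.01% for AAGGTCA and 2.86% for TGCTGAC. In all elements the central shares were 5.93%, 8.50%, 2.08% and 2.17% in that order. In elements without a soft-masked base, also chosen after seeing the data, they were 9.37%, 21.1%, 6.80% and 5.97%. Such elements of the whole series had 6.90%, 14.4%, 3.59% and 4.15%. With the replicate number as a block, 1433 rod-only elements (rods and Nrl-/- photoreceptors only) were called more open in rods, against 1467 in the same libraries without it, and 321 and 122 nearest genes were higher and lower in rods. Not every library correlated best with its own number. Where a count differed, the cause was not tested. Over 47 named genes and 517 alternative values, 0 changed sign, and 6 calls, all of Rcvrn, were lost.

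The low depth of the double-sorted green cone libraries limits statements on low elements there, and RNA was compared in rods and Nrl-/- photoreceptors only. Counts of 3 as a floor cover counting error only.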
